A study of Mus musculus with 6 samples.

Results

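*Egr1*, *Egr2*, *Egr3*, *Nab2*, *Nr4a1*, *Nr4a3* and *Cd69* are early genes that double positive (DP) thymocytes turn on when their T cell receptor (TCR) is engaged. These 7 genes were picked by symbol among the 23183 gene symbols listed for each library, and every one of them was found. RNA-seq had been done on CD4+CD8+ DP thymocytes sorted from the thymus of C57BL/6 mice aged 6 weeks, with 3 libraries of *Nsrp1* f/f mice (wild type, WT) and 3 libraries of *Nsrp1* f/f CD4Cre mice (conditional knockout, NSrp70-cKO). Both groups carry the floxed *Nsrp1* allele, which encodes the splicing factor NSrp70, and the cKO alone also carries Cre. Since *Cd4* regulatory elements drive Cre, deletion starts in cells that are about to become or already are DP, and a WT group with Cre but no floxed allele is not among these libraries. The sources used here do not say whether each library came from 1 mouse or from pooled mice. The comparison asks what the loss of NSrp70 does to this early response.

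A DP thymocyte whose TCR binds self peptide on MHC receives a signal through Ras and ERK and through calcium, and this signal turns on immediate early genes without new protein synthesis. Egr1, Egr2 and Egr3 are zinc finger transcription factors that follow ERK activity through ternary complex factors and serum response factor, and their loss impairs positive selection. Nab2 is a corepressor that binds Egr proteins and is itself a target of Egr factors. Nr4a1 (Nur77) and Nr4a3 (Nor1) are orphan nuclear receptors induced in proportion to TCR signal strength and linked to the death of strongly self-reactive thymocytes. CD69 is a surface lectin that marks thymocytes undergoing selection and holds them in the thymus by removing the egress receptor S1PR1.

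The depth estimated from the spacing of low values was about 20600000 to 20800000 fragments in WT, 13200000 in cKO 1, 20600000 in cKO 2 and 17200000 in cKO 3. The WT libraries differed among themselves by little more than sampling noise, with a chi-square per degree of freedom of 1.61 or less, against 32.2 to 73.2 between cKO libraries. WT values are therefore given as a mean with their range, and calls are also given with the WT libraries counted as 1 sample. Nothing in the labels says that the libraries of a group came from separate cultures or animals, so p-values measure the spread between these libraries only. The targeted gene, listed under its older symbol *Ccdc55*, was at 17.7, 15.8 and 15.0 FPKM in the cKO libraries and at 20.2 to 21.1 in WT, a log2 fold change of -0.34 (SE 0.0772, limma adjusted p = 0.00675, or 0.184 with WT as 1 sample). Genes linked to sex separated the groups as well: *Xist* was at 69.8 to 72.0 FPKM in WT and 4.07 to 5.44 in cKO, and the Y-linked genes *Uty*, *Kdm5d*, *Eif2s3y* and *Ddx3y* were all listed at 0 in WT but reached at least 5.83 in each cKO library. Sex and genotype thus cannot be told apart in any difference below.

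Messenger RNA of the Egr, Nr4a and Cd69 genes was lower in cKO than in WT DP thymocytes. The cKO mean was 36.6% of the WT mean for *Egr1*, 48.2% for *Egr2*, 44.8% for *Nr4a1*, 37.3% for *Nr4a3*, 66.3% for *Nab2* and 76.1% for *Cd69*, and for these 6 genes the cKO values were all below the WT values. By limma on log2(FPKM + 1) over 10326 genes, at a Benjamini-Hochberg adjusted p under 0.05, all 6 were called lower, where 29.8% of all tested genes were called lower and 35.8% higher. The cKO values lay below all WT values for 33.3% of tested genes. *Egr3* was also lower, at 32.2% of WT, but it passed the filter on low values (1 FPKM or more in 3 libraries) through the WT libraries alone, so its call was not counted with the other 6. Over the 10089 genes at 1 FPKM or more in at least 1 library of each group, 28.6% were called lower and 36.3% higher, and the lists below are counted over such genes. FPKM counts fragments relative to transcript length and to the total of mapped fragments, so levels can be compared between genes. In bulk RNA of this kind, fewer cells that express a gene and less RNA per cell cannot be told apart.

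**Figure D1:**
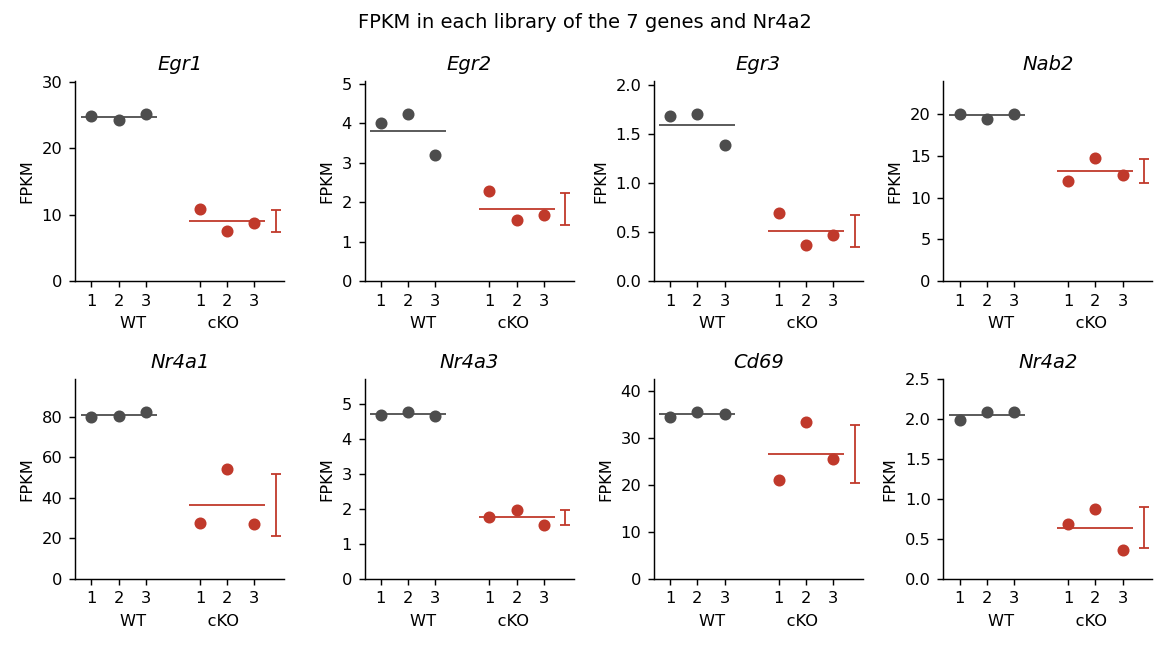
FPKM (vertical axis, linear from 0, own scale for each gene) of the 7 genes and of *Nr4a2* in WT libraries 1 to 3 (grey) and cKO libraries 1 to 3 (red). Horizontal lines are group means, and the bar beside each cKO group is ± 1 SD (n = 3). Every cKO point lies below every WT point for each of the 8 genes shown, as it does for 33.3% of all tested genes. The groups are closest for *Cd69*, where cKO 2 reached 33.4 and the lowest WT library 34.5. *Egr3* and *Nr4a2* passed the filter on low values through the WT libraries alone.

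Among the Egr genes, *Egr1* (chromosome 18, 34859823 to 34864984, GRCm38) was the most abundant. It was at 24.8, 24.2 and 25.1 FPKM in WT 1, 2 and 3 and at 10.8, 7.58 and 8.73 FPKM in cKO 1, 2 and 3, a mean of 9.04 ± 1.64 (SD, n = 3). The groups were far apart, with the highest cKO library under 50% of the lowest WT library's level. The log2 fold change was -1.37 (SE 0.119, limma adjusted p = 0.000191), and *Egr1* remained called with WT as 1 sample (adjusted p = 0.0297).

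*Egr2* (chromosome 10, 67535475 to 67542188), a factor shared by positive selection and the NKT cell lineage, was much less abundant. It was at 3.99, 4.22 and 3.19 FPKM in WT and at 2.29, 1.54 and 1.67 FPKM in cKO (1.83 ± 0.401, SD, n = 3). WT 3 was the lowest WT library and still lay above cKO 1, the highest cKO library. The log2 fold change was -0.76 (SE 0.134, limma adjusted p = 0.00227). *Egr3* (chromosome 14, 70077203 to 70082614), which acts together with Egr2, was near the limit of detection in cKO, at 0.694, 0.370 and 0.472 FPKM (0.512 ± 0.166, SD, n = 3) against 1.68, 1.70 and 1.39 in WT. These values rest on about 29 to 34 fragments per cKO library and 108 to 131 per WT library. Its log2 fold change of -0.78 (SE 0.114, limma adjusted p = 0.00106) understates the ratio, since the pseudocount of 1 exceeds the cKO values, and with a pseudocount of 0.1 it was -1.49. With WT as 1 sample the adjusted p was 0.0569 for *Egr2* and 0.0552 for *Egr3*, past the threshold for neither.

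The fourth family gene, *Egr4*, was at most 0.0763 FPKM in any library, 0 to 3 estimated fragments, and was not tested. The order of levels within the family was thus *Egr1*, *Egr2*, *Egr3*, *Egr4* in each of the 6 libraries.

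*Egr2* is shown in sequence because its promoter windows hold the site through which serum response factor acts. In the RefSeq promoter table (GRCm38.p6), which holds windows for *Egr2*, *Nab2*, *Nr4a1*, *Nr4a3* and the other family genes *Nr4a2*, *Nab1* and *Egr4*, the 250 bases before each start were searched on both strands. The motifs were the CArG box, the site of serum response factor; the cAMP response element TGACGTCA and its core TGACG, bound by CREB and ATF factors; the Egr site GCGNGGGCG; the AP-1 site TGANTCA; and AAAGGTCA, the NBRE that Nr4a receptors bind as monomers. The full cAMP response element contains the core, so a full element would count under both. A CArG box was present in 4 of 5 *Egr2* windows and in 1.47% of all 32851 windows. Of these windows, 3 overlap and share 1 box, the window before them holds a box of its own, and the window farthest upstream holds none. The stretch below runs from 131 to 11 bases before one *Egr2* start, on the plus strand at chr10:67537738-67537858, outside annotated *Egr2* exons, with the CArG box 72 bases before the start and the cores 111 and 55 bases before it in capitals.
Egr2: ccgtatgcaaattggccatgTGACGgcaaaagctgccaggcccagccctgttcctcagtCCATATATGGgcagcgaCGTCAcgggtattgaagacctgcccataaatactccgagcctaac
A match in letters is a description of the window and not a shown binding site.

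*Nab2* (chromosome 10, 127660918 to 127668568, minus strand), the corepressor, stayed nearer to its WT level than the Egr genes. It was at 20.0, 19.5 and 20.0 FPKM in WT and at 12.0, 14.8 and 12.7 FPKM in cKO (13.2 ± 1.43, SD, n = 3). The groups did not overlap, and the log2 fold change was -0.56 (SE 0.0813, limma adjusted p = 0.00101, or 0.0677 with WT as 1 sample). When log2 ratios were corrected for GC content and transcript length over all genes, where 25.2% of 10246 genes were called lower, *Nab2* moved to -0.06 (adjusted p = 0.596) and was no longer called, while the other 6 genes were. Its longest coding transcript has a GC content of 60.1%, the highest of the 7 genes.

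*Nab2* shares its locus with genes on the opposite strand, by 40 bases with *Stat6* and by 1668 bases with *Nemp1*, listed as *Tmem194*. *Tmem194* was higher in cKO, though not under a common FPKM total (9.45 to 10.1 FPKM in WT; 12.7, 13.2 and 14.4 in cKO; log2 fold change 0.41, limma adjusted p = 0.00224), and *Stat6* was at 46.8 to 47.7 in WT and 51.8, 47.6 and 51.6 in cKO (0.09, adjusted p = 0.252). The library kit keeps strand, but the setting used for counting is not given in the sources used here, so fragments in the shared stretch cannot be assigned for certain.

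*Nab1*, the other Nab corepressor, was not called in this fit. It was at 11.6, 11.2 and 12.2 FPKM in WT and at 11.8, 12.2 and 11.5 in cKO, with overlapping groups and a log2 fold change of 0.02 (SE 0.064, limma adjusted p = 0.813), but it was called lower under a common FPKM total (-0.50, adjusted p = 0.00425). The ratio of *Egr1* to *Nab2* was 1.24, 1.24 and 1.25 in the WT libraries and 0.899, 0.514 and 0.687 in the cKO libraries (two-sided exact permutation p = 0.1, the smallest that 3 against 3 allows). *Egr1* thus exceeded *Nab2* in every WT library and lay below it in every cKO library.

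The Nr4a receptors were led by *Nr4a1* (chromosome 15, 101254269 to 101274795), the most abundant of the 7 genes in each library. It was at 80.1, 80.5 and 82.3 FPKM in WT and at 27.7, 54.1 and 27.0 FPKM in cKO (36.3 ± 15.4, SD, n = 3). In cKO 1 and cKO 3 about 34.2% and 33.4% of the WT mean remained, and in cKO 2 66.8%, the widest gap between cKO libraries among the 7 genes in FPKM. The log2 fold change was -1.21 (SE 0.243, limma adjusted p = 0.004), and with WT as 1 sample the adjusted p was 0.0681.

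*Nr4a3* (chromosome 4, 48045153 to 48086447) was much lower in abundance and the more even of the pair. It was at 4.69, 4.76 and 4.64 FPKM in WT and at 1.75, 1.95 and 1.55 FPKM in cKO (1.75 ± 0.202, SD, n = 3), a log2 fold change of -1.05 (SE 0.0822, limma adjusted p = 0.000146, or 0.0313 with WT as 1 sample). With *Egr1* it was one of 2 genes of the 7 still called lower with WT as 1 sample, where 8.74% of all tested genes were.

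The family gene outside the 7, *Nr4a2* (Nurr1, chromosome 2, 57106830 to 57124003, minus strand), moved the same way. It was at 1.99, 2.09 and 2.09 FPKM in WT and at 0.683, 0.879 and 0.363 in cKO (31.2% of WT, log2 fold change -0.91, SE 0.128, limma adjusted p = 0.000938, or 0.0506 with WT as 1 sample). Like *Egr3* it passed the filter through the WT libraries alone. All cKO values of each Nr4a gene were below its WT values, as was the case for 33.3% of all tested genes.

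The Nr4a promoters are shown because each holds 4 copies of the core TGACG within 250 bases of its start, a number reached by 45 of 32851 windows (0.137%), while 17.8% hold at least 1. None of the Nr4a windows holds a CArG box or the full cAMP response element. *Nr4a1* and *Nr4a2* each have 1 Egr site, found in 4.7% of windows, 60 and 74 bases before the start. The window of *Nab1*, which was not called in the main fit, holds 3 Egr sites and 1 core, and that of *Egr4* holds 2 cores. No AP-1 site (6.75% of windows) and no NBRE (1.34%) is present in the windows of any of the 7 genes that the table holds, and the *Nab2* window holds none of the motifs searched. The cores, on either strand, are in capitals in the stretches below, all outside annotated exons of the gene.
Nr4a1, chr15:101266596-101266655, plus strand: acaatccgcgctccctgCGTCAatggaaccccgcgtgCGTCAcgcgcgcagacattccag
Nr4a1, chr15:101266766-101266825, plus strand: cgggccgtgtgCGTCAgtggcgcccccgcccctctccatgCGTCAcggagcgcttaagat
Nr4a3, chr4:48045065-48045152, plus strand: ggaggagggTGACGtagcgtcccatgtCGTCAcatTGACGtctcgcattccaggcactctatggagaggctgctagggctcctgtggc
Nr4a2, chr2:57124109-57124208, minus strand: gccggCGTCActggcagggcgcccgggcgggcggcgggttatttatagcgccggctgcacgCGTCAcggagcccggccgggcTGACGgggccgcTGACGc
The *Nr4a3* stretch stops before an annotated exon and shows 3 of its 4 cores.

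*Cd69* (chromosome 6, 129267325 to 129275436, minus strand), the surface marker, had the smallest of the 7 log2 fold changes in this fit, but the largest after the GC content and length correction. It was at 34.5, 35.6 and 35.1 FPKM in WT and at 21.2, 33.4 and 25.5 FPKM in cKO (26.7 ± 6.20, SD, n = 3). The cKO 2 library, at 95.2% of the WT mean, was close to the WT range, whereas cKO 1 was at 60.3%. The log2 fold change was -0.41 (SE 0.146, limma adjusted p = 0.0418), a call that was lost when any single library other than cKO 2 was left out (adjusted p 0.0885 to 0.118), and was -0.57 without cKO 2 (adjusted p = 0.000991). After the GC content and length correction it was -0.93 (adjusted p = 0.00176), while *Egr1* moved to -0.78. The ratio of *Nr4a1* to *Cd69* was 2.26 to 2.34 in WT and 1.31, 1.62 and 1.06 in cKO (two-sided exact permutation p = 0.1, the smallest possible). The FPKM ratio was thus lower in every cKO library, but after the GC content and length correction the log2 fold changes were -0.84 for *Nr4a1* and -0.93 for *Cd69*, so the difference between these genes depends on that setting.

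Ordered by level, the genes ran *Nr4a1*, *Cd69*, *Egr1*, *Nab2*, *Nr4a3*, *Egr2*, *Egr3* in each WT library. In the cKO libraries *Nab2* stood above *Egr1*, and *Nr4a3* and *Egr2* were not separated beyond their spread, with *Egr2* above in cKO 1 and cKO 3 and *Nr4a3* above in cKO 2.

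**Figure D2:**
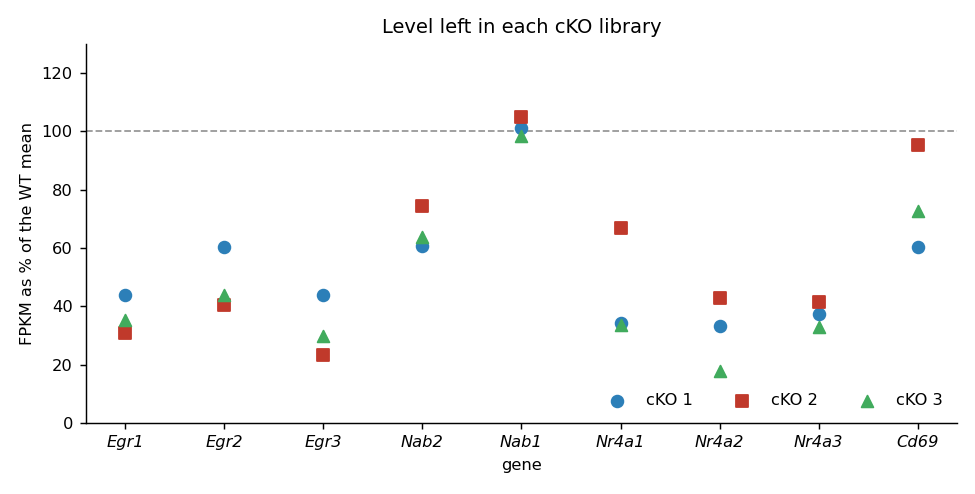
FPKM of each gene in cKO 1 (circles), cKO 2 (squares) and cKO 3 (triangles) as a percentage of the WT mean (vertical axis), with a dashed line at 100%. The squares are lowest for *Egr1*, *Egr2* and *Egr3* (30.7%, 40.5% and 23.3%) and highest for *Nab2*, *Nr4a1*, *Nr4a2*, *Nr4a3* and *Cd69* (74.3%, 66.8%, 42.8%, 41.6% and 95.2%), while *Nab1* stays between 98.5% and 105%.

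The cKO libraries were ordered differently for the Egr genes than for the rest. For *Egr1*, *Egr2* and *Egr3* cKO 2 was the lowest of the cKO libraries and cKO 1 the highest. For *Nab2*, *Nr4a1*, *Nr4a3* and *Cd69* cKO 2 was the highest. The ratio of *Egr1* to *Nr4a1* accordingly was 0.391, 0.140 and 0.323 in cKO 1, 2 and 3, on both sides of the WT range of 0.301 to 0.310. The ratio of *Nr4a1* to *Nr4a3* did not separate the groups either. It was 16.9 to 17.7 in WT and 15.8, 27.7 and 17.4 in cKO (two-sided exact permutation p = 0.8). Over all tested genes cKO 2 was the highest cKO library for 37.3% and the lowest for 39.5%, so either place was common. It was the highest for 16 of 19 tested immediate early genes outside the Egr and Nr4a families. The order describes these 3 libraries and was not tested.

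The other immediate early genes, 22 genes such as the AP-1 subunits and the phosphatases of the Dusp family, were mostly lower too. Of 17 genes at 1 FPKM or more in both groups, 11 were called lower, 2 higher and 4 in neither direction, and their median log2 fold change was -0.61, beside 0.05 over all such genes. With WT as 1 sample fewer were called, as over all such genes, and the median was -0.62. *Fosb* and *Fosl2*, which encode AP-1 subunits, passed the filter through WT alone and are not in these counts. *Fosb* was at 3.51 to 3.82 FPKM in WT and 0.818, 0.958 and 0.538 in cKO. *Fosl2* was at 2.51 to 2.64 in WT and 0.303, 0.592 and 0.268 in cKO.

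*Jund*, the most abundant of the named AP-1 genes, was at 189 to 202 FPKM in WT and 117, 121 and 111 in cKO (-0.75, limma adjusted p = 0.000222). *Zfp36*, which encodes an RNA-binding protein that destabilises messages with AU-rich elements, was at 94.5 to 98.9 in WT and 67.3, 66.7 and 60.8 in cKO (-0.57, adjusted p = 0.000519). The called genes that were higher were *Btg2*, an antiproliferative gene, at 125 to 129 in WT and 154, 166 and 153 in cKO (0.30, adjusted p = 0.00577), and *Nfkbia*, the NF-kB inhibitor, at 38.3 to 40.7 in WT and 80.3, 93.0 and 46.3 in cKO (0.82, adjusted p = 0.0174). The rise of *Btg2* depended on scaling, since it was at -0.09 under quantile normalization and at -0.26 under a common FPKM total, and *Nfkbia* was not called under a common FPKM total (0.27, adjusted p = 0.408) or after the GC content and length correction (0.65, adjusted p = 0.0774).

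Genes that positive selection raises in DP thymocytes were also lower or not called. Of 14 at 1 FPKM or more in both groups, 9 were called lower and 0 higher, with a median log2 fold change of -0.40. After the GC content and length correction 8 were called lower and 2 higher, beside 2459 lower and 3228 higher of 10016 such genes. With WT as 1 sample fewer were called, as over all such genes, and the median was -0.40. *Ccr7*, the receptor that guides selected cells to the medulla, was at 15.1 to 16.2 FPKM in WT and 1.16, 1.42 and 2.50 in cKO (log2 fold change -2.64, limma adjusted p = 0.000106). *Il7r*, the survival cytokine receptor, fell by 1.67 on the log2 scale (adjusted p = 4.82e-05). *Zbtb7b*, the CD4 lineage factor ThPOK, and *Bach2*, a repressor that keeps T cells naive, passed the filter through WT alone and are not in these counts. They were at 2.72 to 3.05 and 2.44 to 2.83 FPKM in WT and at most 0.300 and 0.721 in cKO. *Cd5*, whose level tracks TCR signal strength, was at 108 to 113 FPKM in WT and 120.5, 94.3 and 103 in cKO and was not called (-0.06, adjusted p = 0.637), while it was lower under quantile normalization (-0.40, adjusted p = 0.00403) and higher after the GC content and length correction (0.36, adjusted p = 0.0156). Under a common FPKM total *Cd5* was lower as well (-0.61, adjusted p = 0.000795). *Id3*, an Egr target at 123 to 128 in WT and 102, 148 and 115 in cKO, was not called in the main fit. It was called lower under quantile normalization (-0.44, limma adjusted p = 0.0345) and a common FPKM total (-0.63, adjusted p = 0.0136), but not after the GC content and length correction (-0.14, adjusted p = 0.451). *Cd5* and *Id3* were named after their values were seen.

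Of the genes raised by a strong TCR signal, 5 of 9 at 1 FPKM or more in both groups were called lower and 1 higher (median -0.84). With WT as 1 sample fewer were called, as over all such genes, and the median was -0.84. *Bcl2l11*, which encodes the death protein Bim, was at 38.9 to 40.4 FPKM in WT and 18.3, 24.1 and 17.9 in cKO (log2 fold change -0.97, limma adjusted p = 0.000439). *Nfkb2* and *Gadd45b*, genes of the NF-kB response or under its control, fell by 0.92 and 0.87 (adjusted p = 0.0003 and 0.00989). *Tnfrsf9* (4-1BB) passed the filter through WT alone, at 2.08 to 2.26 FPKM in WT and 0.550, 0.612 and 0.690 in cKO, and is not in these counts. *Pdcd1*, the inhibitory receptor PD-1, rose from 4.24 to 5.21 in WT to 7.70, 7.34 and 9.90 in cKO (0.69, adjusted p = 0.00235), a change that was not called under a common FPKM total (0.21, adjusted p = 0.129).

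**Figure D3:**
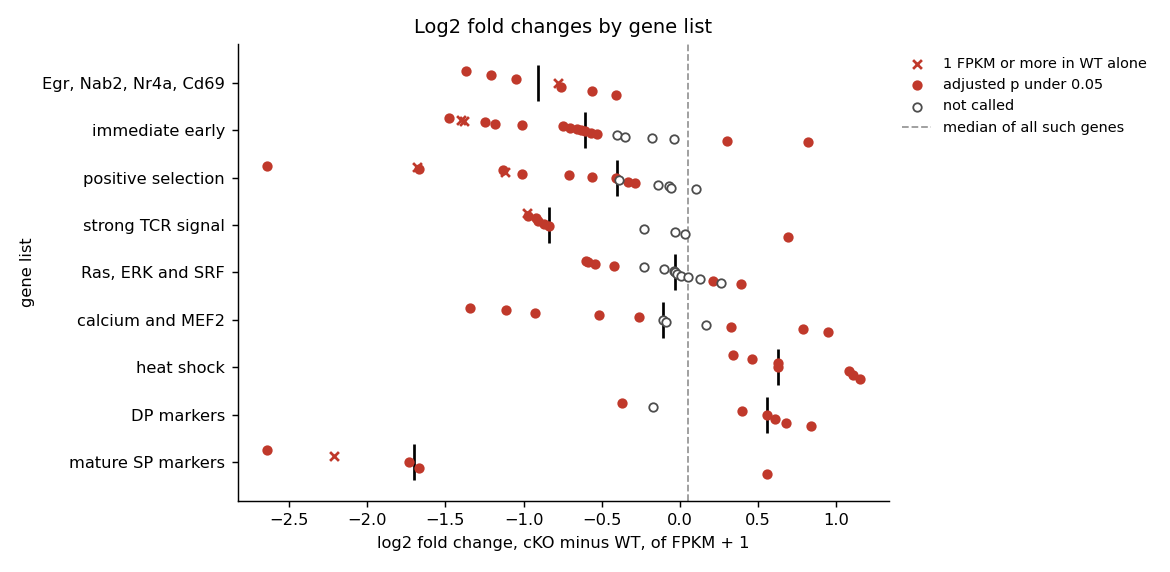
Log2 fold change (cKO minus WT, on log2(FPKM + 1), horizontal axis) of each tested gene in 9 gene lists (rows). Filled points were called at an adjusted p under 0.05, open points were not, crosses are genes that reached 1 FPKM in WT alone, black bars are list medians without the crosses and the dashed line is the median of all genes without such genes, 0.05. *Egr1*, *Egr2*, *Nab2*, *Nr4a1*, *Nr4a3* and *Cd69* (top row) lie left of that line, and the heat shock genes (median 0.63) lie right of it.

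The genes of the Ras, ERK and serum response factor route showed no such shift as a list in the main fit. Of 15 genes of the Ras, ERK and serum response factor route, 4 were called lower, 2 higher and 9 in neither direction (median -0.03). The share called lower is near the 28.6% of all genes and the share called higher is below the 36.3%. With WT as 1 sample 0 were called in either direction. Those lower were *Srf*, which encodes serum response factor itself (19.5 to 19.9 FPKM in WT; 13.0, 13.0 and 12.0 in cKO; log2 fold change -0.60, limma adjusted p = 0.000315), its partners *Elk3* and *Elk4* (-0.54 and -0.42, adjusted p = 0.000836 and 0.0146), and *Sos1*, which loads Ras with GTP (-0.59, adjusted p = 0.000702). No gene of this list was called higher under quantile normalization or a common FPKM total. Quantile normalization gave 5 lower, beside 3041 of all 10326 tested genes. A common FPKM total gave 14 lower, beside 6182 of 10326. With the GC content and length correction 2 were called lower and 2 higher. After the GC content and length correction *Srf* was at -0.08 (adjusted p = 0.426) and *Elk4* at -0.33 (adjusted p = 0.052), so both calls were lost.

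Of 11 tested genes of the calcium and MEF2 route, which opens the *Nr4a1* promoter, 5 were called lower and 3 higher (median -0.11). Over all genes at 1 FPKM or more in both groups, 28.6% were called lower and 36.3% higher (median 0.05). *Mef2d*, a factor that binds the *Nr4a1* promoter, was at 63.0 to 65.2 FPKM in WT and 29.1, 25.1 and 21.0 in cKO (log2 fold change -1.34, limma adjusted p = 0.000183). *Cabin1* and *Hdac7*, which encode repressors of MEF2 at that promoter, fell by 1.11 and 0.93 (adjusted p = 0.000114 and 0.000313), and *Hdac4* fell by 0.52 (adjusted p = 0.0021). The calmodulin gene *Calm2* and the factor gene *Mef2a* were among the higher genes (0.79 and 0.33, adjusted p = 0.000492 and 0.00218). Under a common FPKM total 1 gene of the list was called higher, and neither *Calm2* (0.23, adjusted p = 0.0543) nor *Mef2a* (-0.23, adjusted p = 0.0581) was called. *Mef2d* and the repressor genes *Cabin1* and *Hdac7* were thus lower side by side, while *Mef2a* was higher in the main fit.

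The genes whose profile over the 6 libraries was most like the mean standardized profile of the 7 were *Hdac5*, *Cdk9*, *Rgp1*, *Dlg4* and *Slc35d1*, each with Pearson's r of 0.999 or 1.000, out of 2111 genes whose log2 values spanned at least 1. *Hdac5* was at 13.1 to 13.8 FPKM in WT and 6.15, 7.12 and 6.04 in cKO. *Cdk9*, the kinase that releases paused RNA polymerase II, was at 38.8 to 40.1 in WT and 19.4, 21.7 and 18.8 in cKO. With 6 libraries in separate groups, any gene that differs strongly between the groups has a high r, so the value describes likeness alone.

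Marker genes showed cells of the DP stage in both groups, with *Rag1* at 964 to 983 FPKM in WT and 1625, 1211 and 1671 in cKO and *Cd8b1* at 1240.2 to 1275 and 2603, 1809 and 2426. Of 7 DP markers 5 (0 with WT as 1 sample) were called higher in cKO and 1 lower by limma, a split that turned with the scaling, since quantile normalization gave 4 lower and 1 higher, and a common FPKM total 2 lower and 1 higher. Of 4 mature single positive (SP) markers at 1 FPKM or more in both groups, *Klf2*, *Ccr7* and *Il7r* were called lower, also with WT as 1 sample, and 1 higher, a call lost under a common FPKM total. *S1pr1*, the egress receptor, which passed the filter through WT alone, was at 4.11 to 4.79 FPKM in WT and 0.133, 0.203 and 0.201 in cKO, and *Klf2*, its activator, at 17.5 to 18.8 and 4.30, 6.59 and 3.86. These markers moved with the 7 genes, and their part in the difference was not tested.

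Markers of other cells were low. The summed FPKM of 4 B cell genes was 1.19 to 1.23 in WT and 0.984 to 1.81 in cKO, none reaching the filter. The sum of 6 macrophage and dendritic cell genes was 6.13 to 8.01 and 5.15 to 7.34, with 0 of 3 tested genes called, and the sum of 5 thymic epithelial genes was 3.56 to 3.98 and 1.92 to 3.67, with *Krt5* and *Foxn1* at 0 in all libraries. Of 2 tested double negative (DN) markers, *Il2ra* was lower in cKO (4.54 to 4.96 against 3.88, 2.75 and 2.96 FPKM, log2 fold change -0.45, limma adjusted p = 0.0114, or 0.061 under quantile normalization). The other, *Cd44*, was not called (0.02, adjusted p = 0.863), and *Kit* was below the filter. Erythroid genes were higher in cKO, at a sum of 1.98 to 2.91 in WT and 15.1 to 31.1 in cKO, with 3 of 3 tested called higher, 1 of which (*Hbb-b2*) passed the filter through cKO alone. These 3, *Hba-a1*, *Hbb-b1* and *Hbb-b2*, have near-identical copies, so the split between copies is uncertain.

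Heat shock genes, which respond early to handling and dissociation as immediate early genes do, went the other way. Of 7 tested, 0 were called lower and 7 higher (median 0.63). With WT as 1 sample fewer were called, as over all such genes, and the median was 0.63. The list was led by *Hsp90aa1* (182 to 185 FPKM in WT and 375, 397 and 427 in cKO, log2 fold change 1.11, limma adjusted p = 0.000118), *Hspe1* (1.15, adjusted p = 0.000222), *Hspa8* (1.08, adjusted p = 0.00103) and *Dnaja1* (0.63, adjusted p = 0.00118). Under a common FPKM total 3 of the 7 were called higher and 1 lower. The stress-inducible *Hspa1a* and *Hspa1b*, named after their values were seen, were below the filter, at 0.0923 to 0.368 FPKM in WT and 0.174 to 1.45 in cKO. Their part in the difference was not tested.

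**Figure D4:**
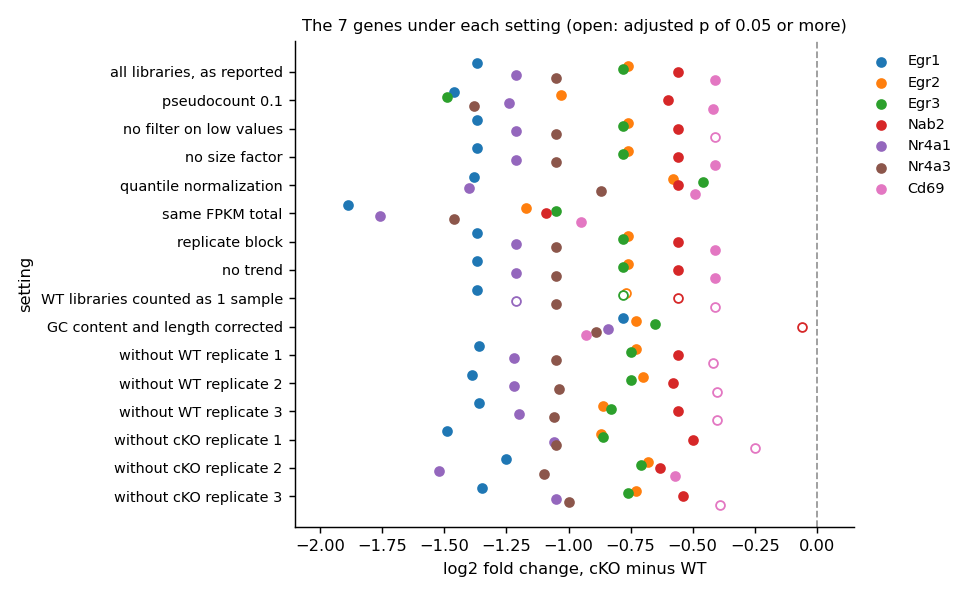
Log2 fold change of the 7 genes (horizontal axis, one colour per gene) in the fit reported here (top row) and under each of 15 alternative settings (rows). Filled points had an adjusted p under 0.05. All points lie below 0, *Nab2* comes nearest at -0.06 after correction for GC content and length, and open points are most frequent with the WT libraries counted as 1 sample, where 2 of 7 genes were called.

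All 7 genes had a log2 fold change below 0 in 15 of 15 alternative settings, with ranges of -1.89 to -0.78 for *Egr1*, -1.46 to -0.87 for *Nr4a3* and -0.95 to -0.25 for *Cd69*. The summed FPKM of all genes was higher in cKO (701396 to 850548) than in WT (521296 to 531517). Scaling every library to the same total moved the median of all tested genes from 0.04 to -0.45, and genes called lower then made up 87.3% of all calls in place of 45.4%. Under that scaling *Egr1* was at -1.89, which is still below the shifted median, as were the other 6 genes, and *Nab1*, at -0.50, lay next to it.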

How the data were processed

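Poly(A) RNA of sorted DP thymocytes was sequenced from NEBNext Ultra II Directional libraries. The authors trimmed reads with fastx, aligned them with TopHat to mm10 and deposited FPKM values per gene symbol from Cufflinks. Versions, annotation and strand setting are not given in the sources used here. Depth was estimated from the spacing of low values of 2613 coding genes with a single transcript over 1000 nt, assuming 200 nt fragments.

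FPKM values were divided by median-of-ratios size factors (1.002 to 1.015), and log2(FPKM + 1) was fitted with limma 3.58.1 (R 4.3.3, lmFit, eBayes with trend) over 10326 genes at 1 FPKM or more in at least 3 libraries, 3 WT against 3 cKO, with Benjamini-Hochberg adjustment at 0.05. The study tested counts with DESeq2, which does not suit FPKM. The script was tested on simulated data. Alternatives were a pseudocount of 0.1, no filter, other scalings (none, quantile, common FPKM total), a replicate block, no trend, WT as 1 sample, a GC and length correction (spline, 5 degrees of freedom) and leaving out each library.

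The members and gene lists were chosen with earlier results of these data known. Named were the 7 genes, *Egr4*, *Nab1* and *Nr4a2*, the targeted gene, up to 4 called genes per list and direction by smallest adjusted p, and the 5 genes most alike in profile. Some genes of these lists are counted but not reported here by name. Coordinates are from GENCODE M21 (GRCm38), promoters from RefSeq (GRCm38.p6).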

Additional observations from a re-analysis of the deposited data

How the results depend on the processing

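Fold changes of the 7 genes kept their direction in all 15 alternatives. With WT treated as 1 sample the targeted gene stayed at -0.34. Fewer genes were called lower in that fit, which holds 1 sample in the WT group. *Nab1* turned to -0.50 under a common FPKM total, where it was called lower (adjusted p = 0.00425), and to -0.01 without WT replicate 2. With single libraries left out, 6 to 7 of the 7 genes and 12 to 16 immediate early genes were called lower, and *Nab1* was between -0.01 and 0.05. Without a filter on low values 6 of the 7 were called lower, *Cd69* being lost (adjusted p = 0.0778), and after the GC and length correction 6, *Nab2* being lost. The correlation of deviations of libraries with the same number was -0.022, 0.038 and 0.031. Deviations within WT were mostly counting noise, with a chi-square per degree of freedom between 1.5 and 1.61. These correlations therefore cannot decide whether the numbers pair the libraries. With the replicate block 7 genes and 13 immediate early genes were called lower, as without it. These counts, like those above, include *Egr3*, *Fosb* and *Fosl2*, which passed the filter through WT alone. Without them 6 of 6 and 11 of 17 were called lower with the block. Over all 10089 genes at 1 FPKM or more in both groups, 2774 were called lower with the block. With single libraries left out 5 to 6 and 10 to 14 were called lower, beside 2334 to 3333 over all such genes. Without the filter on low values 5 and 11 were called lower, beside 2643. Not every WT and cKO library correlated best with its own number. *Egr3*, *Nr4a2* and *Egr4* are limited by depth, at 0 to 61 estimated fragments per cKO library. The cause of the changes under other settings was not tested. Counts of the other gene lists under other settings were added after seeing the data.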
